A study of Mus musculus with 6 samples.

Results

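This account describes 9 genes that bind or move zinc, iron and haem, in dendritic cells taken from mouse tumours: the metallothioneins Mt1 and Mt2, their transcription factor Mtf1, the zinc exporter Slc30a1, the ferritin heavy chain Fth1, the iron exporter Slc40a1 (ferroportin), the transferrin receptor Tfrc, the phagosomal metal transporter Slc11a1, and the haem-degrading enzyme Hmox1. They were found by matching the listed symbols to the Ensembl gene identifiers of the count table, and 9 of 9 were found among 26519 genes. All 9 passed the filter on low counts, which kept 12580 genes. On GRCm38 (the mm10 build), Mt1 (ENSMUSG00000031765) lies at chr8:94179082-94180327, Mt2 (ENSMUSG00000031762) at chr8:94172664-94173568 and Hmox1 (ENSMUSG00000005413) at chr8:75093621-75100589. Slc40a1 (ENSMUSG00000025993), Slc11a1 (ENSMUSG00000026177) and Slc30a1 (ENSMUSG00000037434) lie on chromosome 1, at chr1:45908068-45926523, chr1:74375195-74386062 and chr1:191906767-191913247. Mtf1 (ENSMUSG00000028890) lies at chr4:124802104-124849800, Tfrc (ENSMUSG00000022797) at chr16:32608920-32632794 and Fth1 (ENSMUSG00000024661) at chr19:9980598-9985098. The cells came from tumours of MC38, a mouse colon carcinoma line, on day 10 after inoculation, in 3 libraries from MAVS knockout hosts and 3 from wild-type (WT) hosts. Both groups carried the same tumour line, and the knockout is of the host. MAVS is the mitochondrial adaptor through which RIG-I and MDA5 signal when they meet viral RNA, and the study asks how its loss in the host alters the dendritic cells of the tumour. The sources used here give neither the allele, the strain and age of the mice, nor the gate used for the cells. They also do not say whether each replicate was a separate animal, so the errors and p-values cover only the spread among these 6 libraries, which may be technical. The genes were chosen with results of the same comparison known. Their differences between the groups are therefore given as a description, with no test. In these bulk samples, fewer cells of one type and less RNA per cell cannot be told apart.

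Metallothioneins are small cysteine-rich proteins that hold zinc and copper. Their genes are switched on by MTF1, a zinc-sensing factor that binds short metal response elements in their promoters, and by glucocorticoids and other stresses. Cells take up transferrin-bound iron through the transferrin receptor, store it in the ferritin shell of heavy and light chains, and release it through ferroportin. The iron regulatory proteins bind a stem-loop, the iron-responsive element, in the messenger RNAs of this system when iron is scarce: they block translation when it lies before the coding sequence and protect the messenger when it lies after it. Macrophages obtain much of their iron from haem, which haem oxygenase 1 breaks down into iron, biliverdin and carbon monoxide.

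The iron-responsive elements are shown because they set ferritin, ferroportin and the transferrin receptor apart from the other genes by sequence alone. The motif searched was CNNNNNCAGTGN, with T, C or A in the last place and 5 base pairs between the bases on either side of the loop, on the transcript strand. It was found in 3 of the 9 genes and in 0.861% of 20096 principal transcripts of GENCODE M21 (GRCm38, the mm10 build). Capitals mark the unpaired C and the 6 bases of the loop in each 27-base stretch. Those of Fth1 (chr19:9982733-9982759, plus strand) and Slc40a1 (chr1:45925466-45925492, minus strand) lie in the 5' UTR, and the 4 of Tfrc (chr16:32631220-32631246, chr16:32631599-32631625, chr16:32631664-32631690 and chr16:32631711-32631737, plus strand) in the 3' UTR.
Fth1: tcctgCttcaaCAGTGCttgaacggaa
Slc40a1: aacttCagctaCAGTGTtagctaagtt
Tfrc element 1: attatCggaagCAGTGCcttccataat
Tfrc element 2: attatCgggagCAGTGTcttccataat
Tfrc element 3: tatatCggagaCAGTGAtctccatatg
Tfrc element 4: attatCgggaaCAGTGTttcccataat
Ftl1, the ferritin light chain, carries the same kind of element in its 5' UTR (chr7:45459780-45459806, minus strand). The other match among the listed genes lay in the coding sequence of Keap1, the inhibitor of NRF2 (chr9:21233751-21233777, minus strand).
Ftl1: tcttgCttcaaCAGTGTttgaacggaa
Keap1: gcccaCgcaggCAGTGCcctgccgcgc

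The 250 bases before the annotated RefSeq starts of Mt1 and Mt2 are shown because the pair is the known target of MTF1. They need not hold the whole promoter of either gene. Both genes lie on chromosome 8, with their starts 6418 bases apart. RefSeq promoter windows (GRCm38.p6, 250 bases before to 50 after the start) matched 7 of the 9 genes. The core of the metal response element was searched as TGCACNC and TGCGCNC on both strands. Mt2 held 4 matches, Mt1 3, Slc30a1 2 and Tfrc 2 that overlap each other on opposite strands, and Mtf1, Fth1 and Slc11a1 held none in these windows. Those of Tfrc lie in 1 of its 2 windows, and the other held none. At least 1 match was present in 25.7% of 32851 windows of this length, at least 3 in 1.97% and at least 4 in 0.517%. Capitals mark the matches in the 250 bases before the annotated start. Of the matches, 2 in Mt1 (TGCACTC and TGCGCTC) and 1 in Mt2 (TGCGCAC, on the minus strand) lie after that start and are not in the stretches printed, chr8:94178839-94179088 for Mt1 and chr8:94172368-94172617 for Mt2, both on the plus strand.
Mt1: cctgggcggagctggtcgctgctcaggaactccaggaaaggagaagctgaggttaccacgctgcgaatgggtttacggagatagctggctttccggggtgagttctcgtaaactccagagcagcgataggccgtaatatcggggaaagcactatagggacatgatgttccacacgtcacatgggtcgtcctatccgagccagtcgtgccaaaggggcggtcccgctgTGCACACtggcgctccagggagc
Mt2: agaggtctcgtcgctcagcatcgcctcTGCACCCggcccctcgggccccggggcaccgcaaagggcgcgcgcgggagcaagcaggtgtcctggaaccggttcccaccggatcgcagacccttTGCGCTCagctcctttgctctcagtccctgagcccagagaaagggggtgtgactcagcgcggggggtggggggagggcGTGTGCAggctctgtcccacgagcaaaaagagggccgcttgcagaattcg

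Mavs itself had 8.99, 12.8 and 9.45 CPM (read counts relative to library size, after TMM scaling) in the knockout libraries, against 33.9, 39.7 and 39.7 CPM in the WT libraries. It fell by 1.86 on the log2 scale (SE 0.18; edgeR quasi-likelihood F test, Benjamini-Hochberg adjusted p = 0.0017), so transcripts of the gene remained in the knockout libraries. The deleted part of the gene is not known here. Library totals were 14466640 to 20851733 counts. Over all 12580 tested genes, 354 (2.81%) passed the threshold of 0.05, 222 higher (1.76%) and 132 lower (1.05%) in knockout hosts. With library size alone as the scaling, which put the median of all genes at -0.17 against -0.0022, the split was 102 higher and 341 lower. The libraries carried abundant macrophage transcripts beside those of dendritic cells: the 11 macrophage markers summed to 28112 to 35673 CPM in knockout and 26431 to 31688 CPM in WT libraries, most of it Lyz2 at 22105 ± 4494 and 21636 ± 2363 CPM in the same order (SD, n = 3 each). After TMM scaling the groups did not overlap for 7 of these markers, as for 21.8% of all tested genes. The 6 that were higher in every knockout library included Mrc1 at 425 ± 119 against 273 ± 26.3 CPM and Fcgr1 at 179.9 ± 28 against 119.7 ± 17.9 CPM (knockout against WT, SD, n = 3 each), and Apoe was lower. As a share of library totals the groups overlapped for Mrc1, with 4672 of 15897590 counts in knockout replicate 2 and 6353 of 20851733 in WT replicate 3. Such shares also overlapped for Fcgr1, C1qb, C1qc and Cd68. None of the 11 passed by edgeR, 7 had an unadjusted p below 0.05 and 4 passed by DESeq2. The 7 monocyte markers summed to 8569 to 17122 CPM in knockout and 5690.2 to 6433 CPM in WT libraries. Of these, Chil3 alone had 12484, 3237 and 6437 CPM in the knockout libraries, against 1669.9, 515 and 1849.7 CPM in the WT libraries. It rose by 2.46 on the log2 scale (SE 0.51, edgeR adjusted p = 0.036), and the other 6 did not pass. The median log2 fold change of the 7 was 0.07, with 4 positive and 3 negative (Vcan -1.09, Plac8 -0.27 and Ccr2 -0.17). Of 11 conventional dendritic cell markers, 5 fell (Xcr1, Flt3, Cd209a, Itgae and Zbtb46) and 6 did not pass. By limma-voom 3 of the 11 passed. Log2 fold changes were negative for 8 and positive for 3, Itgax (0.25), Irf8 (0.21) and H2-Ab1 (0.03). The 11 summed to 15361 to 18587 CPM in knockout and 15545 to 17799 CPM in WT libraries, most of it H2-Ab1. The part of these cell markers in the values below was not tested.

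Both metallothioneins were higher in the knockout libraries, and Mt2 had the largest log2 fold change of the 9 genes on the higher side. Mt2 had 88.2, 120.0 and 89.6 CPM in the knockout libraries, against 47.2, 45.0 and 45.8 CPM in the WT libraries. The WT libraries lay close together, and every knockout library was well above them. Its log2 fold change was 1.11 (SE 0.14). Mt1, the more abundant of the pair, had 549, 688 and 612 CPM in the knockout libraries, against 499, 444 and 418 CPM in the WT libraries. After TMM scaling the groups did not overlap, but the lowest knockout library and the highest WT library were close. As a share of library totals the groups overlapped, with 9783 of 18862534 counts in knockout replicate 1 and 10116 of 19201453 in WT replicate 1. The log2 fold change of Mt1 was 0.44 (SE 0.11). Replicate 2 was the highest knockout library for both genes.

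The balance within the metallothionein pair also differed between the groups. Mt2 made up 13.8%, 14.9% and 12.8% of the counts of the pair in the knockout libraries, against 8.65%, 9.21% and 9.89% in the WT libraries. Per transcript length, Mt1 exceeded Mt2 by 5.83 ± 0.511 times in knockout and 9.16 ± 0.674 times in WT libraries (SD, n = 3 each). Both genes were thus higher in every knockout library after TMM scaling, and the less abundant one by the larger factor. Part of the Mt2 transcript is shared with an antisense gene, Gm45774, at 100% over 212 of 511 bases. Without a stated strand setting its reads cannot be told apart from those of Mt2.

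Mtf1, which encodes the factor that drives both metallothioneins, did not separate the groups. It had 18.0, 17.7 and 15.6 CPM in the knockout libraries, against 11.9, 16.3 and 16.4 CPM in the WT libraries, a log2 fold change of 0.20 (SE 0.19). Slc30a1, the plasma membrane zinc exporter and another textbook target of MTF1, was near the limit of detection in all 6 libraries. It had 0.618, 0.604 and 0.732 CPM in the knockout libraries, against 0.887, 0.587 and 1.01 CPM in the WT libraries. The ratio of its summed counts, 30 in knockout and 51 in WT libraries, was 0.77, with an exact 95% interval from 0.474 to 1.23 that covers counting error only. The groups overlapped, and no direction can be read from so few counts. Antisense genes overlap both transcripts, 1110065P20Rik that of Mtf1 with 122 counts in all, and 1700034H15Rik that of Slc30a1 with 10 counts in all.

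Fth1, the ferritin heavy chain and the subunit with the ferroxidase activity, was the most abundant of the 9 genes and ranked 3 in mean CPM among all tested genes. It had 18638, 25668 and 21428 CPM in the knockout libraries, against 13933, 12795 and 14027 CPM in the WT libraries. The knockout libraries were all higher and spread more widely than the WT libraries, with replicate 2 at the top. The log2 fold change was 0.69 (SE 0.11). As a share of all counts, Fth1 took 1.76%, 2.41% and 2.02% in the knockout libraries, against 1.47%, 1.38% and 1.46% in the WT libraries. No transcript of another annotated gene matched that of Fth1 at 95% identity or more over 100 bases or more.

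The light chain Ftl1, which helps form the mineral core of ferritin, differed less. It had 7091, 6530.4 and 6577 CPM in the knockout libraries, against 6197, 5039.7 and 5825 CPM in the WT libraries, and did not pass (log2 fold change 0.24, SE 0.10, edgeR adjusted p = 0.238). Per transcript length, the ratio of heavy to light chain was 2.74, 4.10 and 3.39 in the knockout libraries, against 2.34, 2.65 and 2.51 in the WT libraries. Those values did not overlap, although the lowest knockout library was close to the highest WT library.

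**Figure D1:**
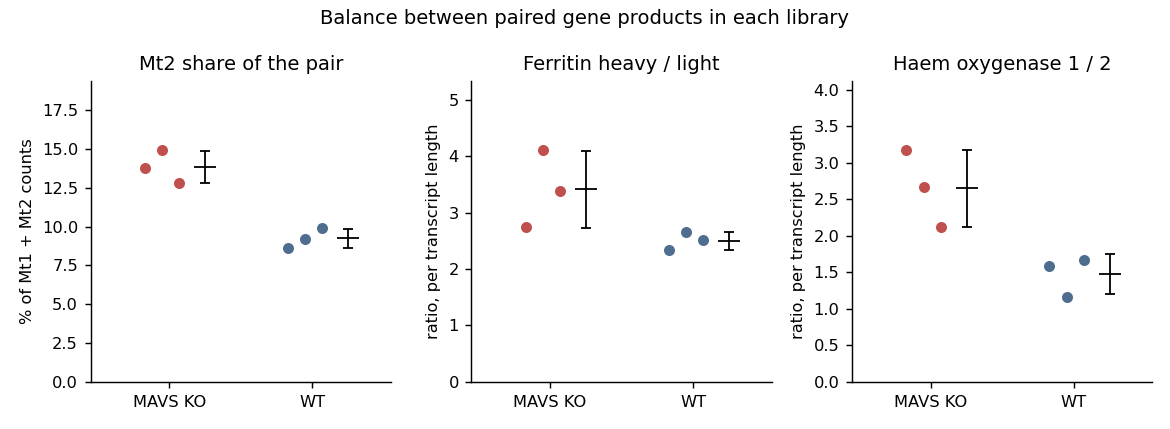
Share of Mt2 in the counts of Mt1 and Mt2 (left, in percent), ratio of Fth1 to Ftl1 (middle) and of Hmox1 to Hmox2 (right, both per transcript length) in each library, with MAVS KO left of WT; points are libraries and bars the mean ± SD (n = 3). The Mt2 share was 12.8% to 14.9% in knockout and 8.65% to 9.89% in WT libraries, and the groups do not overlap in any panel.

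Slc40a1, ferroportin, the only known cellular iron exporter, was scarce in both groups and scarcer in the knockout libraries. It had 1, 5 and 0 counts in the knockout libraries, against 16, 36 and 15 counts in the WT libraries, or 0.0562, 0.335 and 0 CPM against 0.789, 1.92 and 0.691 CPM. The count of 0 in knockout replicate 3 allows up to 3 counts, or 0.22 CPM. Every WT library was above every knockout library. The ratio of the summed counts, 6 in knockout and 67 in WT libraries, was 0.117, with an exact 95% interval from 0.0416 to 0.269 for counting error alone. The fitted log2 fold change was -3.05 (SE 0.98), and it was -4.90 without knockout replicate 2, which held 5 of the 6 knockout counts. The gene passed the filter on low counts through its WT libraries, so its difference is not independent of that filter.

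Markers of iron-recycling macrophages, the cells known for high ferroportin, were also at low levels. The 5 markers summed to 11.3 to 11.8 CPM in knockout and 18.4 to 21.7 CPM in WT libraries. Spic, the factor that specifies these macrophages, had 2, 0 and 0 counts in the knockout libraries, against 14, 3 and 2 counts in the WT libraries. Cd163, the haemoglobin scavenger receptor, had 1.68, 0.134 and 0.879 CPM in the knockout libraries, against 3.70, 1.82 and 2.07 CPM in the WT libraries. Timd4, a receptor for dying cells, had 2.25, 1.88 and 1.25 CPM in the knockout libraries, against 2.96, 6.09 and 7.74 CPM in the WT libraries. Of the 4 markers tested none passed by edgeR (1 had an unadjusted p below 0.05, 1 passed by DESeq2 and 0 by limma-voom), and their part in the Slc40a1 values was not tested.

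**Figure D2:**
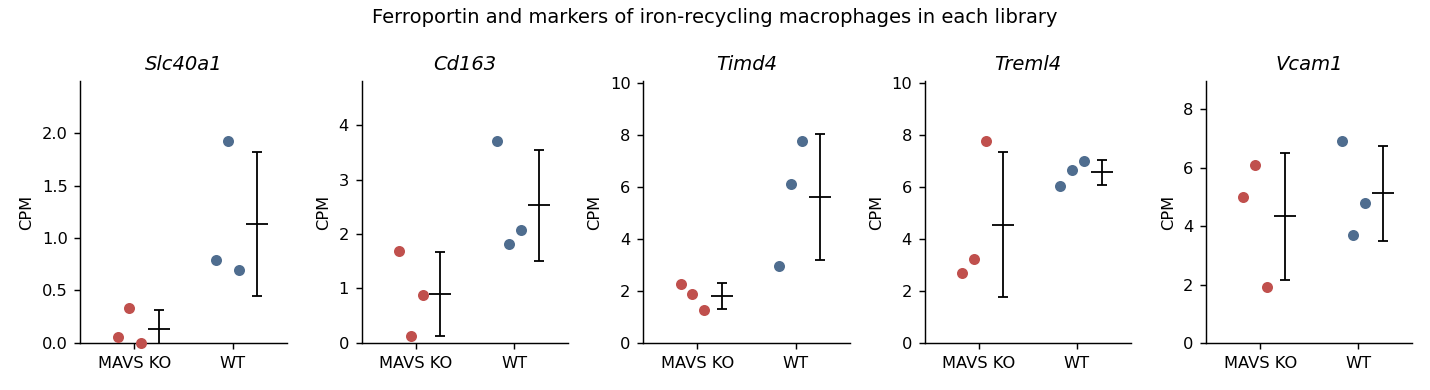
CPM of Slc40a1 and of 4 markers of iron-recycling macrophages in each library, with MAVS KO left of WT; points are libraries and bars the mean ± SD (n = 3), cut at 0. Slc40a1, Cd163 and Timd4 were lower in every knockout library than in any WT library, whereas Treml4 and Vcam1 overlapped.

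Tfrc, which brings transferrin-bound iron into the cell, had 37.1, 31.0 and 33.0 CPM in the knockout libraries, against 25.4, 29.3 and 22.1 CPM in the WT libraries. After TMM scaling the groups did not overlap, by a narrow margin, and the log2 fold change was 0.40 (SE 0.16). As a share of library totals the groups overlapped, with 462 of 15897590 counts in knockout replicate 2 and 548 of 17357031 in WT replicate 2. Tfrc is known to be high in dividing cells and in erythroid precursors. Of 8 proliferation markers 4 fell in knockout hosts (Mcm5, Mcm2, Rrm2 and Top2a) and 4 did not pass, with sums of 320.2 to 363 CPM in knockout and 453 to 672 CPM in WT libraries. The 10 erythroid markers held 30 counts in the knockout and 47 in the WT libraries in total, and Alas2 and Ahsp held none. The part of dividing and erythroid cells in the Tfrc values was not tested.

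Slc11a1, the transporter that pumps iron and manganese out of the phagosome of macrophages and neutrophils, had 156, 179.7 and 159 CPM in the knockout libraries, against 167, 121 and 144 CPM in the WT libraries. The groups overlapped, at a log2 fold change of 0.20 (SE 0.13). Ly6g, a defining neutrophil marker, had 0 counts in each knockout library, against 1, 0 and 0 in the WT libraries. Csf3r, the receptor of a granulocyte growth factor, averaged 24.6 ± 2.01 CPM in knockout and 19.8 ± 4.44 CPM in WT libraries, and S100a8, a calcium-binding protein, 7.5 ± 2.31 and 5.13 ± 0.753 CPM in the same order (SD, n = 3 each). The 11 neutrophil markers summed to 35.7 to 36.1 CPM in knockout and 25.8 to 31.8 CPM in WT libraries, with none of 4 tested passing (0 with an unadjusted p below 0.05 by edgeR, 0 by DESeq2 and 0 by limma-voom). Every knockout sum was above every WT sum, but most of each sum was Csf3r, for which the groups overlapped. The part of these transcripts in the Slc11a1 values was not tested.

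Hmox1, the inducible haem oxygenase, had 279, 257 and 215 CPM in the knockout libraries, against 155, 110.4 and 155 CPM in the WT libraries. Every knockout library was above every WT library, at a log2 fold change of 0.84 (SE 0.15). Hmox2, the constitutive enzyme of the same reaction, had 72.3, 78.9 and 83.2 CPM in the knockout libraries, against 79.9, 78.0 and 76.2 CPM in the WT libraries, and did not pass (log2 fold change 0.00, SE 0.11, edgeR adjusted p = 0.998). Per transcript length, the ratio of Hmox1 to Hmox2 was 2.65 ± 0.522 in knockout and 1.47 ± 0.274 in WT libraries (SD, n = 3 each). Macrophages are known for high Hmox1 and Fth1, and the part of the macrophage and monocyte transcripts given above in the values of these genes was not tested.

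**Figure D3:**
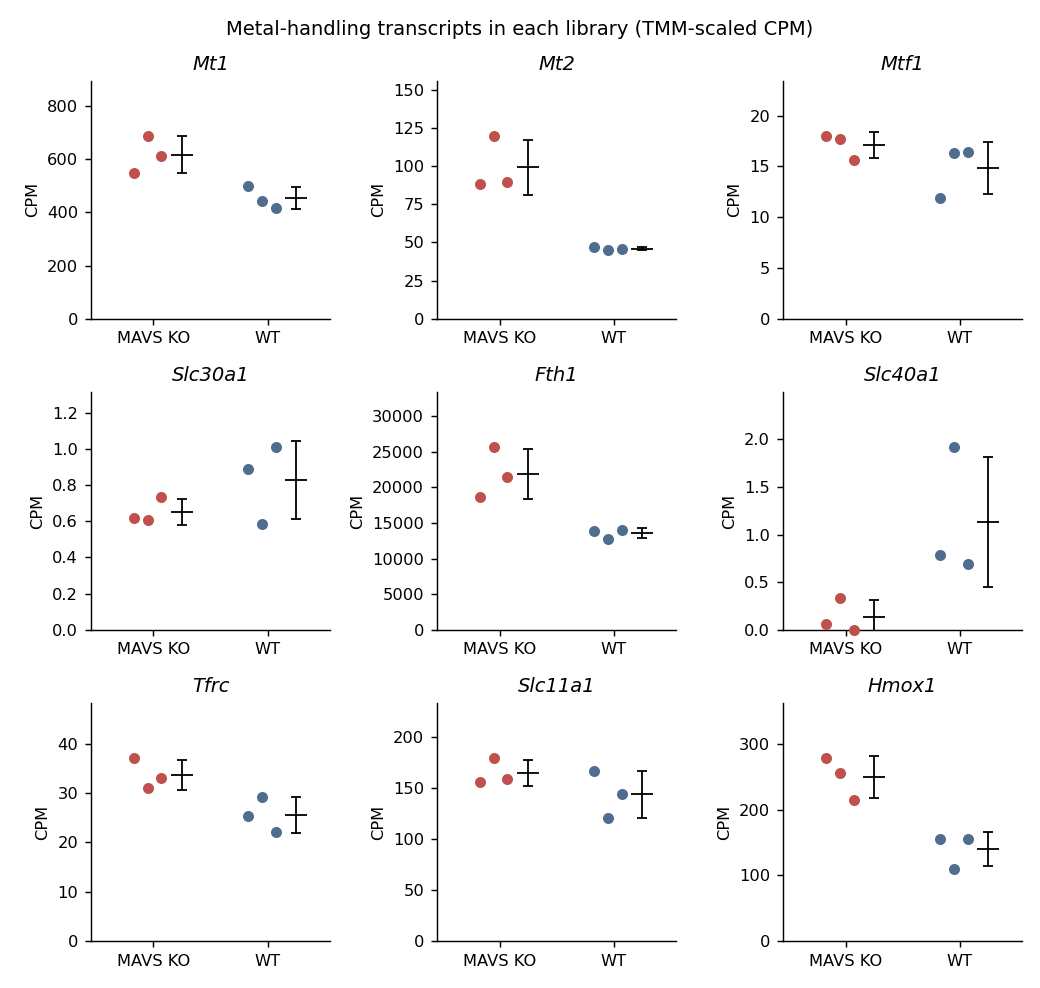
CPM (TMM-scaled) of the 9 metal-handling genes in each library, with MAVS KO left of WT; points are libraries and bars the mean ± SD (n = 3), cut at 0. Mt1, Mt2, Fth1, Tfrc and Hmox1 were higher in every knockout library than in any WT library, Slc40a1 was lower, and Mtf1, Slc30a1 and Slc11a1 overlapped.

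Across the 9 genes, the 2 groups did not overlap for 6 after TMM scaling, of which 5 were higher and 1 lower in knockout hosts. Such a separation was present in 21.8% of all tested genes. Without that scaling, the groups overlapped for Mt1 and Tfrc. Mt2, Fth1 and Hmox1, 3 of the 9, were among the genes past the threshold, against 2.81% of all tested genes. Because the genes were chosen with this comparison known, nothing is read from either count. The median log2 fold change was 0.40, against -0.0022 over all tested genes. In all alternatives that gave a value, each of the 9 genes kept the sign of its log2 fold change. Mt2 was past the threshold in all 13 alternatives. Hmox1 was not without knockout replicate 1, 2 or 3, and Fth1 was not without knockout replicate 3, which left 1 of the 9. Mt1 was past it only with no filter on low counts and with the DESeq2 Wald test, which made 4 of the 9 in each. These fits reuse the same 6 libraries and the same choice of genes, so nothing is read from how often a call was kept or gained. None of the 9 lies on chromosome 2, which holds Mavs.

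Levels were compared between genes as CPM per kilobase of the principal transcript. In the WT libraries the order was Fth1 at 14623 ± 739, Mt1 at 826 ± 75.3, Mt2 at 90.1 ± 2.19, Hmox1 at 89.4 ± 16.5, Slc11a1 at 62.1 ± 9.99, Tfrc at 5.24 ± 0.731, Mtf1 at 1.97 ± 0.339, Slc40a1 at 0.336 ± 0.203 and Slc30a1 at 0.158 ± 0.0417 (SD, n = 3). Mt2 and Hmox1, as well as Slc40a1 and Slc30a1, did not differ beyond their spread in that order, and the lowest WT library of Hmox1 lay below the highest of Slc11a1. In the knockout libraries Mt2 stood at 194 ± 35.1 and Hmox1 at 159.7 ± 20.7 CPM per kilobase (SD, n = 3), again within their spread. Slc40a1 came last there, at 0.0387 ± 0.0533 CPM per kilobase, below Slc30a1 at 0.124 ± 0.0135 (SD, n = 3 each).

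The likeness of patterns was measured as the root-mean-square distance between log2 CPM profiles over the 6 libraries, each centred on its own mean. Among the 36 pairs of the 9 genes, Mt1 and Fth1 were the closest (0.150), whereas Mt1 and Mt2 ranked 16 (0.339) and the pairs with Slc40a1 were the most distant (1.427 to 1.896). Among 8696 genes with at least 5 CPM on average, the nearest to Mt1 were Ccdc90b (0.031), the glycolytic enzyme Gapdh (0.035) and Sirpb1a (0.035). The nearest to Hmox1 were Cd200r4 (0.045), the protein C receptor Procr (0.102) and the chemokine Ccl6 (0.103). The nearest to Tfrc were the kinase Fyn (0.079), the growth factor Pdgfa (0.082) and Lpxn (0.083). The nearest to Slc40a1 were the DNA polymerase subunit Pole (0.480), Siglecg (0.548) and the fractalkine receptor Cx3cr1 (0.626), all at larger distances.

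Other genes of metal handling, antioxidant defence and stress were read from the same fit, in lists chosen by function but with earlier results of these data known. In 7 lists with 102 tested genes, 5 rose and none fell, or 4.9%, close to the 2.81% of all tested genes, so this count is no result about the lists. The 5 metal and antioxidant lists among them held 77 tested genes, of which 3 rose and none fell (3.9%). All 5 calls were lost without knockout replicate 1, 2 or 3 and without WT replicate 1 or 2, and 3 were kept without WT replicate 3. With library size alone as the scaling, 1 passed, Fbxl5.

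Of 19 tested genes of iron uptake, storage and control, 1 rose and 18 did not pass, at a median log2 fold change of 0.00. Fbxl5, the iron-sensing subunit of the ubiquitin ligase that degrades iron regulatory protein 2, had 445, 415 and 445 CPM in the knockout libraries, against 211, 212 and 309 CPM in the WT libraries. It rose by 0.83 on the log2 scale (SE 0.15, edgeR adjusted p = 0.0221). The adjusted p was 0.0567 to 0.108 in the 5 fits that lost the call, each without 1 of the 3 knockout libraries or of WT replicates 1 and 2. Ireb2, which encodes that regulatory protein, stood at 15.4 ± 1.48 CPM in knockout and 13.2 ± 1.96 CPM in WT libraries, and Aco1, the other regulatory protein, at 83.3 ± 9.14 and 84.2 ± 1.90 CPM in the same order (SD, n = 3 each). Neither passed. The mitochondrial iron importer Slc25a37 (log2 fold change 0.50, SE 0.16, edgeR adjusted p = 0.151) and the endosomal iron transporter Slc11a2 (0.35, SE 0.13, edgeR adjusted p = 0.219) did not pass.

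Of 19 tested genes of haem synthesis, transport and breakdown, 1 rose and 18 did not pass, at a median of 0.00. Blvrb, which encodes a biliverdin reductase, had 153, 162 and 149 CPM in the knockout libraries, against 105, 64.0 and 105 CPM in the WT libraries. It rose by 0.76 on the log2 scale (SE 0.17, edgeR adjusted p = 0.0478). That call was lost without each of the 6 libraries in turn (adjusted p 0.059 to 0.162), with DESeq2 size factors (0.0508) and with library size alone (0.0783). Blvra, the other biliverdin reductase, stood at 99.1 ± 6.15 CPM in knockout and 91.7 ± 9.85 CPM in WT libraries (SD, n = 3 each) and did not pass. Alas1, the first enzyme of haem synthesis, had 587, 481 and 413 CPM in the knockout libraries, against 397, 312 and 329.8 CPM in the WT libraries, and did not pass (0.51, SE 0.14, edgeR adjusted p = 0.0976), but passed with no filter on low counts (0.0014) and with the DESeq2 Wald test (0.0184). Alad, the enzyme after it, did not pass (-0.41, SE 0.16, edgeR adjusted p = 0.243), nor did the haem-haemopexin receptor Lrp1 (0.32, SE 0.13, edgeR adjusted p = 0.243).

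Of 9 tested genes of copper handling, 1 rose and 8 did not pass, at a median of 0.06. Slc31a1, the copper importer of the plasma membrane, had 253, 265 and 281 CPM in the knockout libraries, against 171, 150.1 and 205 CPM in the WT libraries. It rose by 0.60 on the log2 scale (SE 0.13, edgeR adjusted p = 0.0364). The call was lost in the 5 fits without 1 of the 3 knockout libraries or of WT replicates 1 and 2 (adjusted p 0.0858 to 0.161) and with library size alone (0.0752). Its relative Slc31a2 had 189.8, 161 and 181 CPM in the knockout libraries, against 129.7, 88.7 and 131 CPM in the WT libraries, and did not pass (0.61, SE 0.15, edgeR adjusted p = 0.0695), but passed with no filter on low counts (0.000372) and with the DESeq2 Wald test (0.00649). Sod1 (-0.27) and the copper pump Atp7a (0.26) did not pass (edgeR adjusted p = 0.578 and 0.613).

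**Figure D4:**
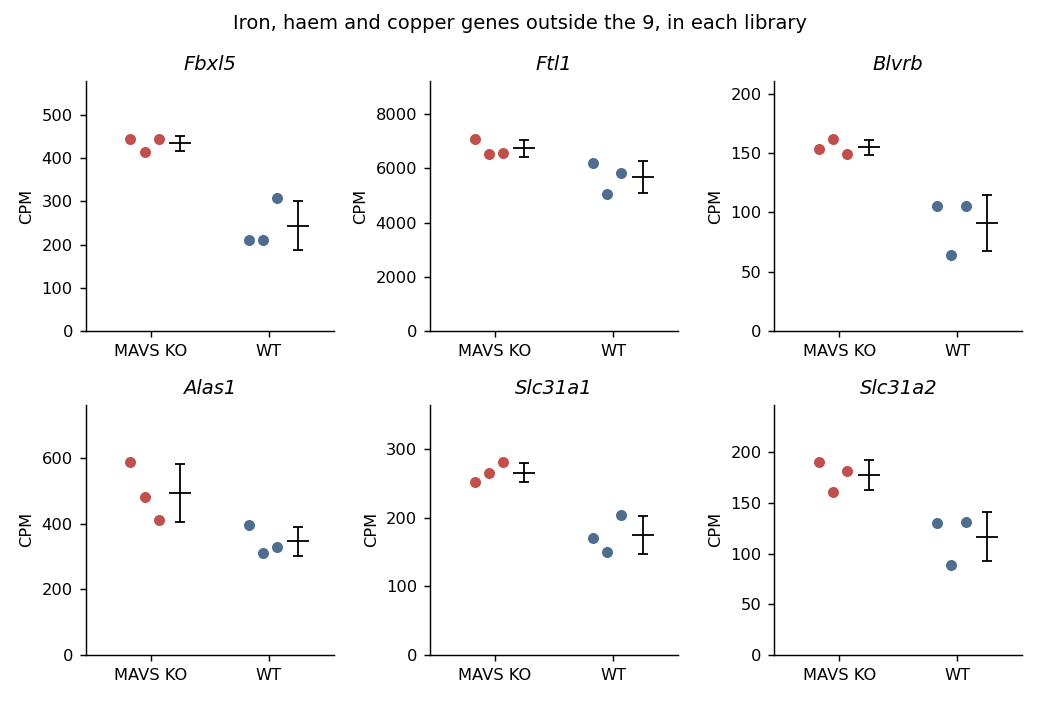
CPM of Fbxl5, Ftl1, Blvrb, Alas1, Slc31a1 and Slc31a2 in each library, with MAVS KO left of WT; points are libraries and bars the mean ± SD (n = 3). After TMM scaling, the groups do not overlap for any of the 6 genes, of which Fbxl5, Blvrb and Slc31a1 passed the threshold. As shares of library totals, the groups overlap for Ftl1 and Alas1.

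The zinc list held the transporters and the remaining metallothioneins. Of 16 tested none passed by edgeR, with 3 at an unadjusted p below 0.05, 0 by DESeq2 and 0 by limma-voom, and the median log2 fold change was -0.13. The plasma membrane importer Slc39a1 had 4.77, 9.39 and 8.94 CPM in the knockout libraries, against 4.24, 4.11 and 3.82 CPM in the WT libraries (0.92, SE 0.31, edgeR adjusted p = 0.167). Slc30a5 and Slc30a4, which load zinc into the secretory pathway and vesicles, stood at -0.45 (SE 0.15) and -0.68 (SE 0.26), with edgeR adjusted p = 0.176 and 0.221. Slc39a8, an importer of zinc and manganese, had 7, 0 and 0 counts in the knockout libraries, against 11, 16 and 16 counts in the WT libraries, where each 0 allows up to 3 counts, and did not pass (edgeR adjusted p = 0.33).

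Antioxidant targets of NRF2, the factor that also drives Hmox1 and Fth1, were tested as a further list. Of 14 tested none passed by edgeR, with 6 at an unadjusted p below 0.05, 2 by DESeq2 and 0 by limma-voom. The median log2 fold change was 0.27, and 11 of the 14 were positive. Gclm, a subunit of the enzyme that starts glutathione synthesis, had 12, 11.9 and 7.76 CPM in the knockout libraries, against 6.56, 5.82 and 3.78 CPM in the WT libraries (0.97, SE 0.29, edgeR adjusted p = 0.114). The glutathione reductase Gsr (0.60), the cystine importer Slc7a11 (0.47) and the peroxiredoxin Prdx1 (0.39) did not pass, with edgeR adjusted p from 0.144 to 0.169. With no filter on low counts, Gclm (0.0277), Gsr (0.00851), Slc7a11 (0.0102) and Prdx1 (0.0171) passed, and with the DESeq2 Wald test Gclm (0.0367) and Gsr (0.0427). Nfe2l2, the gene of NRF2, stood at 284 ± 6.83 CPM in knockout and 242 ± 17.7 CPM in WT libraries (SD, n = 3 each) and did not pass, and Bach1, which represses many of the same genes, at 12.3 ± 2.35 and 14.2 ± 2.91 CPM in the same order did not either.

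Lists of glucocorticoid and stress genes were set beside the metallothioneins, which respond to both. Of 10 tested glucocorticoid-induced genes 2 rose, the kinase Sgk1 by 0.44 (SE 0.09, edgeR adjusted p = 0.0327) and the small GTPase Rhob by 1.01 (SE 0.22, edgeR adjusted p = 0.0364), and 8 did not pass. The median was 0.29. Errfi1 (0.49) and Ddit4 (0.86) did not pass (edgeR adjusted p = 0.254 and 0.328), though Errfi1 did with no filter on low counts (0.00424). The Rhob call was lost without each of the 6 libraries in turn (adjusted p 0.0515 to 0.155) and with limma-voom (0.0515), and that of Sgk1 in 5 of the 6, being kept without WT replicate 3 (0.0493 against 0.07 to 0.125); both were lost with library size alone (0.0613 and 0.109). Of 15 heat shock and dissociation genes none passed by edgeR (2 at an unadjusted p below 0.05, 0 by DESeq2 and 0 by limma-voom), and their summed level was 12722 to 14613 CPM in knockout and 12944 to 14981 CPM in WT libraries. Their named members were Atf3 (0.39, past the threshold with no filter on low counts at an adjusted p of 0.0351), Ier2 (-0.22), Ier3 (0.28) and Egr1 (0.31). The part of these lists in the metallothionein values was not tested.

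**Figure D5:**
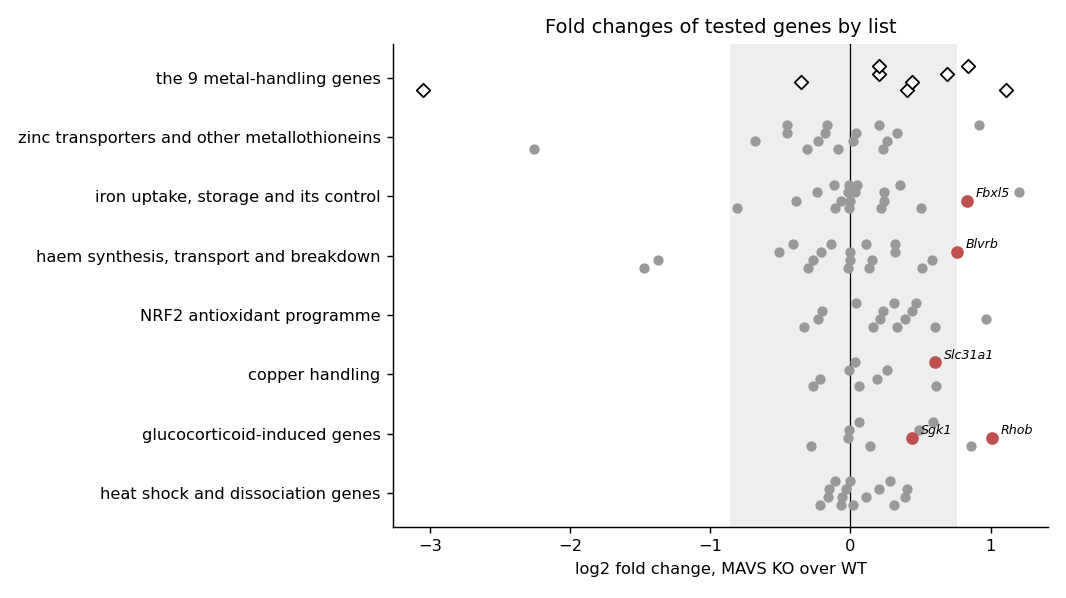
Log2 fold change, MAVS KO over WT, of the 9 metal-handling genes (open diamonds, drawn without marking calls) and of every tested gene in 7 lists (grey, not past the threshold; red and named, past it); the shaded band spans the 5th to 95th percentile of all tested genes, -0.85 to 0.75. Red points are Fbxl5, Blvrb, Slc31a1, Sgk1 and Rhob, and the diamond at -3.05 is Slc40a1.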

How the data were processed

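RNA sequencing counts of 6 libraries, 3 per group, were analysed. The authors deposited unnormalized counts for each Ensembl gene, whole numbers whose totals differ between libraries. The submitters' processing notes list mm10, HISAT, HISAT2, HTSeq and DESeq2, and no role or version. The sources used here do not give the annotation release or the strand setting. Symbols came from GENCODE M21, which matched 26383 of 26519 identifiers (136 did not match), and promoter sequences from RefSeq.

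The test was the quasi-likelihood F test of edgeR 4.0.16 (R 4.3.3) without covariates, after filterByExpr with a minimum count of 10 and a minimum total of 15, with TMM scaling and Benjamini-Hochberg adjustment over 12580 genes at 0.05. Profiles used a prior count of 2. Lengths are those of the shortest APPRIS principal transcript with a consensus coding sequence. Copies were searched with BLAST 2.17.0. Libraries of a group differed by far more than sampling noise (chi-square over its degrees of freedom 14.9 to 34.8), so none was a duplicate. The procedure was tested on simulated counts, where small changes were often missed, so a gene that did not pass may still differ. Intervals and floors cover counting error only, and PCR duplicates are not independent molecules.

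As alternatives, scaling used DESeq2 size factors or library size alone, the filter was dropped or set to a mean of 5 CPM, the test was the Wald test of DESeq2 1.42.0 (on all 26519 genes, with its own size factors) or limma-voom (limma 3.58.1), replicate number was a block, and each library was left out in turn. The genes and the 7 pathway and 11 marker lists were chosen with earlier results of these data known. The text names the 9 genes, Mavs, pathway genes past the threshold or among the 4 smallest p of a list, marker genes past the threshold, the most abundant marker (printed for macrophages) and the nearest genes of a profile. Ftl1, the regulatory, light-chain and paired enzymes beside them, and single markers with values were otherwise chosen after their values were seen. Of the other marker lists, the monocyte list had 1 higher of 7 tested (Chil3), B cells 1 lower of 2 (Ighm), and tumour epithelial (2), fibroblast (5) and T cell (7) lists and the 11 macrophage markers none passing by edgeR, with 0, 0, 1 and 7 at an unadjusted p below 0.05, 0, 0, 0 and 4 by DESeq2 and none by limma-voom.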

Additional observations from a re-analysis of the deposited data

How the results depend on the processing

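All 9 metal-handling genes kept the sign of their log2 fold change in each alternative that gave a value (12 or 13 a gene), and their median moved between 0.22 (library size alone) and 0.42. The counts of genes past the threshold depended more on the setting. Over all genes the count was 354 as reported, 924 with no filter on low counts, 741 with the DESeq2 Wald test, which took all 26519 genes, as did the fit without a filter, and its own size factors, and 36 to 277 when 1 library was left out. For the 7 lists it was 5 as reported, 1 with library size alone, 13 with no filter, 9 with the DESeq2 Wald test (122 genes entered in both, against 102), and 0 to 3 when 1 library was left out; fewer samples entered those last fits. The cause of the other shifts was not tested. Library size alone put the median log2 fold change of all genes at -0.17, and the value of Mt1 at 0.27 and of Tfrc at 0.22. Among the 9 genes, shares of the library totals overlapped between the groups for Mt1 and Tfrc where TMM-scaled values did not. Other genes with that dependence on the scaling included Ftl1, Alas1, Prdx1, Slc25a37 and the macrophage markers Mrc1 and Fcgr1. No pairing by replicate number was seen. Same-numbered libraries deviated together with correlations of 0.04, 0.09 and -0.04 over 12580 genes, and not every library correlated best with its own number. Deviations from means of 3 libraries cannot exclude a shared preparation, which the sample labels do not give. With the replicate block, 414 genes passed over all genes, 6 in the lists and 3 among the 9, and the median of the 9 was 0.40; Sgk1 missed the threshold (adjusted p = 0.0555), and Alas1 (0.0471) and Slc31a2 (0.0318) passed it. Depth limits Slc40a1 and Slc30a1, with 73 and 81 counts over the 6 libraries.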
